A study of Mus musculus with 6 samples.

Results

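The insulin-like growth factor (IGF) family as listed here has 10 genes: the ligands Igf1 and Igf2, the receptors Igf1r and Igf2r, and the binding proteins Igfbp2 to Igfbp7. Members were the gene probes of the array whose accession mapped to these symbols. By that rule 7 of the 10 genes, with 1 probe each, were found among the 19801 gene probes. They were Igf1, Igf2, Igfbp3, Igfbp4, Igfbp5, Igfbp6 and Igfbp7. The receptors Igf1r and Igf2r and the binding protein Igfbp2 were not analysed here.

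RNA was measured in mouse embryo fibroblasts on 6 Amersham CodeLink 20K mouse arrays. Of these, 3 held cultures lacking the stress-activated kinase p38α (p38α-/-, called KO), and 3 held wild-type cultures (WT). Both genotypes came from a mixed 129/svev × C57Bl/6 background, had been immortalised spontaneously under the 3T3 protocol, and carried stably transduced H-RasG12V, an activated form of the Ras oncogene. No culture without H-RasG12V was compared. All cultures grew for 72 h in medium with 10% foetal bovine serum, itself a source of growth factors, and were harvested at 70% to 90% confluence while proliferating. The labels call the 3 cultures of a genotype biological replicates and do not say whether they were separately derived lines. The p-values therefore measure the spread between these samples. The comparison sets the RNA of Ras-transformed fibroblasts lacking p38α against that of wild-type ones. If the cultures of a genotype share a line, a difference between lines cannot be told apart from the loss of p38α.

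IGF1 and IGF2 are secreted peptides related to insulin. They signal for growth and survival through the tyrosine kinase IGF1R and the docking proteins, PI3K and Akt behind it, while IGF2R carries IGF2 to lysosomes. Binding proteins hold the ligands outside the cell, and proteases that cut them release the ligand. Fibroblasts are a known source of several of these secreted proteins.

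The deleted gene was the check on the genotype labels. Mapk14, which encodes p38α, had background-subtracted intensities of 17.6, 18.6 and 8.35 among the KO cultures against 60.8, 70.6 and 68.8 among the WT cultures, in replicate order. Every KO array was below every WT array, and 1 of the 3 KO arrays was marked above background. The fitted log2 difference was -0.94 (SE 0.07, limma adjusted p 7.85e-05) with an offset of 50 added to every intensity, and -2.24 without that offset.

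Between 43.8% and 51.7% of the gene probes were above background on an array by the mark of the scanner software, with the lowest share on KO replicate 3. That array also had the highest local background, a median of 61 intensity units against 49 to 53 on the others. Of 14 fibroblast and mesenchymal markers 8 were measured, and 6 of these were above background on all 6 arrays, while Thy1 and Lum were near background on all of them. By log2 difference Vim (0.83) and Sparc (0.81) were higher in KO, Dcn (-0.33) and Pdgfrb (-0.56) were lower, and the other 4 did not pass. Of 21 measured markers of epithelium, blood, endothelium, muscle and liver, 16 were near background on every array. Cd14 of the blood list was above background on all 6 arrays and did not pass (limma adjusted p 0.0751). The keratins Krt18 and Krt19 of the epithelial list were higher in KO. Summed over the 7 measured epithelial markers, intensity was 2297 to 3369 in KO and 51.2 to 58.5 in WT. Most of the KO sum was Krt19, which read 2677, 3195 and 2173 in KO and 19.5, 25.3 and 16.6 in WT. No epithelial marker besides Krt18 and Krt19 passed, and Epcam, Cldn4, Krt8 and Cdh1 were near background on every array. The part of these keratins in the differences below was not tested. In such bulk cultures fewer cells of a type and less RNA per cell cannot be told apart.

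Over the whole array 4420 of 19608 probes tested passed the threshold of 0.05 on the adjusted p, or 22.5%. Of these, 2046 were higher and 2374 lower in KO. In the family 2 of the 7 measured members passed: Igfbp4 was higher and Igfbp7 was lower in KO. With 2 calls in 7 genes the share stands near that over all probes, and it is not a result about the family as a whole. The members' median log2 difference was 0.048, against -0.0079 over all probes. The 3 KO values lay apart from the 3 WT values for 4 of the 7 members (Igfbp3, Igfbp4, Igfbp5 and Igfbp7), as they did for 35.9% of all probes with 6 values.

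The family's probes were mostly dim, which limits what they can show. Igf1, Igfbp3 and Igfbp5 were near background on all 6 arrays, and Igfbp6 and Igfbp7 were above it on all 6. Above-background marks were given to 4, 4 and 3 members on the KO arrays and to 2 on each WT array. Among all probes, 41.0% of those above background on every array passed the threshold, against 0.85% of those near background on every array.

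Both members that passed have promoters rich in G and C, and the letters of these promoters differ. The genes were picked because they passed, and whether promoter letters go with the direction of change was not tested. The sequences are the 250 bases before the annotated start in RefSeq on GRCm38.p6, 5′ to 3′ in the gene's direction, with capitals marking a TATA box (TATAAA) or a GC box (GGGCGG) on either strand. The Igfbp4 stretch is chr11:99040994-99041243 on the plus strand, and the Igfbp7 stretch is chr5:77408046-77408295 on the minus strand.
Igfbp4: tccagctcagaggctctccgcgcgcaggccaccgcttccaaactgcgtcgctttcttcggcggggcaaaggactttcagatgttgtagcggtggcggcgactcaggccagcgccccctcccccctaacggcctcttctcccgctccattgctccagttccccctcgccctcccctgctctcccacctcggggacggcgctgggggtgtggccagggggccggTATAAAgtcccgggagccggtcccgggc
Igfbp7: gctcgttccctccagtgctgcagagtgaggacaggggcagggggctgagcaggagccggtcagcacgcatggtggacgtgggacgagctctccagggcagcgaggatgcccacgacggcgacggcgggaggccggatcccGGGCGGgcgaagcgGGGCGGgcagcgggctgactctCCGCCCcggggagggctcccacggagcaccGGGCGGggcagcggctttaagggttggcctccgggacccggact
The Igfbp4 stretch held 1 TATA box, beginning at position -28 from the start, and no GC box. The Igfbp7 stretch held 4 GC boxes, beginning at positions -110, -96, -74 and -44, and no TATA box.

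Of the 32851 promoter entries for the whole genome, 12.4% held TATAAA and 32.7% held GGGCGG in the same 250 bases, searched on both strands with overlapping matches allowed. G and C made up 69.2% of the Igfbp4 stretch and 74.0% of the Igfbp7 stretch, against a median of 52.4% over all entries. Among measured members that did not pass, the share was 73.2% for Igfbp3, 58.8% for Igfbp5, 52.8% for Igf1 and 49.6% for Igfbp6. Over the Igf2 entries it was 47.6% to 68.8%, so a high share was not particular to the members that passed. Neither stretch held an AP-1 site (TGANTCA), a cAMP response element (TGACGTCA) or a FOXO site (TGTTTAC), which 6.75%, 1.55% and 3.17% of all entries held. All 10 family genes had promoter entries, 14 in all, since Igf2 and Igfbp2 have several starts. A GC box stood in an entry of 5 of the 10 genes (Igf1r, Igf2, Igf2r, Igfbp2 and Igfbp7). The letters TATAAA stood in an entry of 2: Igfbp4, at -28, and Igfbp6, at -148 on the opposite strand. A match of these letters describes the window and shows no binding.

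**Figure D1:**
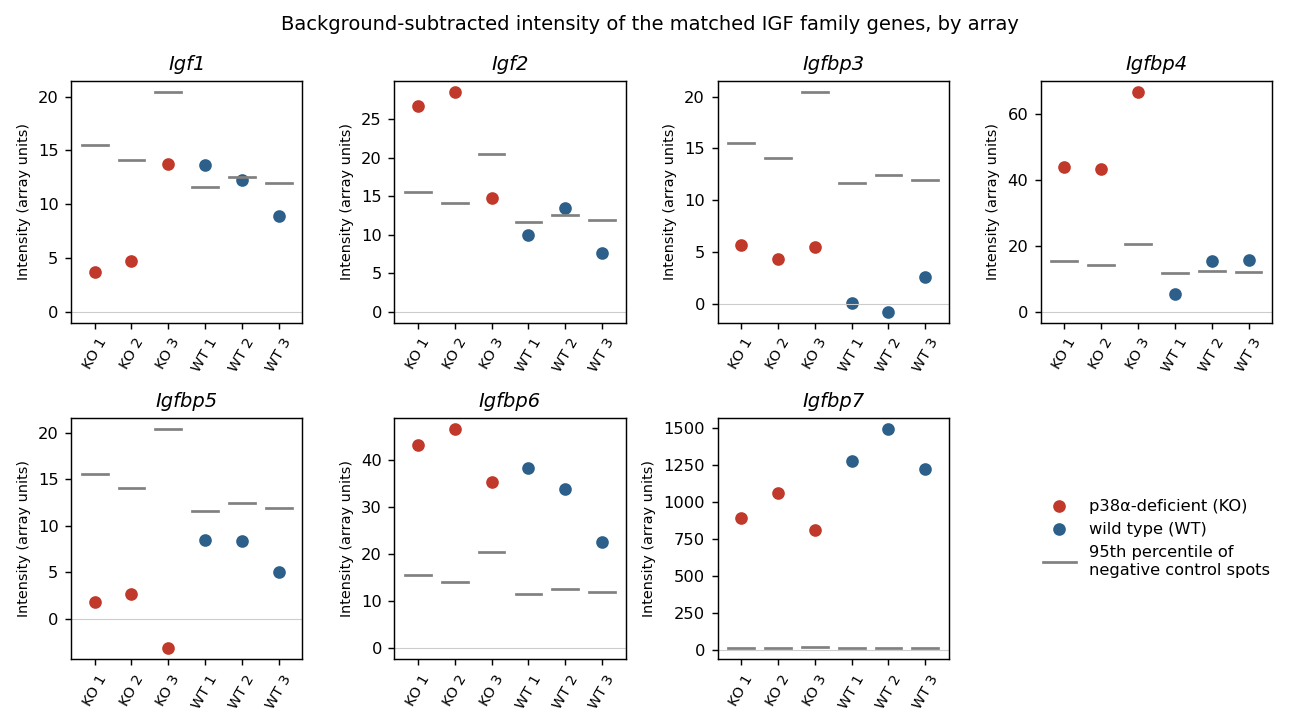
Each panel plots 1 measured family gene, with the 6 arrays on the horizontal axis and background-subtracted intensity in array units on the vertical axis, red for KO and blue for WT. Each vertical scale is its own, and the grey line on each array is the 95th percentile of its 300 negative control spots. Igfbp7 was far above that line on all arrays, Igfbp4 was well above it in KO only, and Igfbp3 and Igfbp5 were below it on every array.

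Igf1, the ligand whose release into blood is driven by growth hormone, did not pass the test. Replicates 1 to 3 read 3.68, 4.71 and 13.7 among the KO cultures, in intensity units, and 13.6, 12.3 and 8.90 among the WT cultures. KO replicate 3 read as high as the WT cultures, so the groups overlapped, and no array was marked above background. Normalized log2 signals averaged 5.94 ± 0.11 for KO against 6.07 ± 0.05 for WT (SD, n = 3 each). The log2 difference of -0.14 (95% interval -0.30 to 0.027) had a limma adjusted p of 0.254. Without KO replicate 3, the array with the raised background, the difference was -0.19 and passed (adjusted p 0.0324). It also passed with spot medians (-0.22, adjusted p 0.0336), and it was -0.039 on the authors' normalized values (adjusted p 0.732). No fold is given, since the gene was near background in both groups.

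Igf2, the ligand prominent in fetal growth and expressed from the paternal allele, read 26.8 and 28.5 in KO replicates 1 and 2 and 14.7 in KO replicate 3. In WT it read 10.0, 13.5 and 7.58. KO replicates 1 and 2 were the only arrays marked above background, and after normalization KO replicate 3 fell within the WT range. Normalized log2 signals averaged 6.23 ± 0.13 for KO against 6.04 ± 0.06 for WT (SD, n = 3 each). The difference of 0.18 (95% interval 0.004 to 0.36) did not pass over all probes (limma adjusted p 0.153, unadjusted p 0.0462). It was 0.27 and passed without KO replicate 3 (adjusted p 0.00857). Both ligands thus changed their call when that array was left out, one on the lower and the other on the higher side.

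Igfbp4 was higher in KO. The protein binds both ligands, mostly holds back their action, and is a substrate of the pappalysin protease. Replicates 1 to 3 read 43.9, 43.3 and 66.7 among the KO cultures, in intensity units, and 5.41, 15.5 and 15.7 among the WT cultures. All 3 KO arrays stood above all 3 WT arrays. The KO arrays were all marked above background and no WT array was, although WT replicates 2 and 3 exceeded the 95th percentile of the negative controls on their arrays.

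Normalized log2 signals of Igfbp4 averaged 6.66 ± 0.23 for KO against 6.09 ± 0.15 for WT (SD, n = 3 each). The log2 difference was 0.57 (SE 0.12, 95% interval 0.28 to 0.86, limma adjusted p 0.0130). With WT near background, the KO mean was at least 1.37-fold higher, a bound that leaves out the spread between arrays. The 95% interval reached down to 1.22-fold on the offset scale. For this bound the WT value on each array was raised, where it lay lower, to the lowest signal that any above-background probe had there, and normalized log2 means were compared. The size depends on how background is handled: the difference was 1.56 without the offset (adjusted p 0.0444), and 1.51 on the authors' normalized values (adjusted p 0.0338). The call was lost without WT replicate 1, the lowest array (0.50, adjusted p 0.0563).

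Igfbp7 fell in KO, and its probe was bright on all 6 arrays. This secreted protein is related to the other binding proteins in sequence but binds IGFs with low affinity, and in human melanocytes it has been described as a mediator of oncogene-induced senescence. Replicates 1 to 3 read 891, 1057 and 811 among the KO cultures, in intensity units, and 1275, 1492 and 1222 among the WT cultures. The highest KO culture was below the lowest WT culture. Normalized log2 signals averaged 9.76 ± 0.10 for KO against 10.58 ± 0.07 for WT (SD, n = 3 each).

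The fitted difference of Igfbp7 was -0.82 (SE 0.07, 95% interval -0.99 to -0.65, limma adjusted p 1.32e-04), a 1.76-fold lower level in KO. It passed the threshold under each of 12 alternative ways of processing, with differences from -0.61 with median scaling of the arrays to -0.86. No array, left out, moved it outside -0.76 to -0.86.

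Igfbp6, which prefers IGF2 over IGF1 and is known to restrain it, was above background on every array and showed no difference that passed. Replicates 1 to 3 read 43.1, 46.6 and 35.2 among the KO cultures, in intensity units, and 38.1, 33.8 and 22.5 among the WT cultures. The normalized values overlapped. Normalized log2 signals averaged 6.53 ± 0.04 for KO against 6.48 ± 0.14 for WT (SD, n = 3 each), a difference of 0.048 (limma adjusted p 0.773). The 95% interval, from -0.13 to 0.23, spans KO levels from 0.911 to 1.17 times WT on the offset scale. The difference was -0.027 without WT replicate 3, the lowest array.

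Igfbp3, the main carrier of IGFs in blood, read 5.70, 4.31 and 5.48 in KO and 0.150, -0.725 and 2.63 in WT, all below the negative controls' 95th percentile. Every KO value was above every WT value, yet the log2 difference of 0.11 (95% interval -0.01 to 0.24) did not pass (limma adjusted p 0.212). The intensities lay within the range of the negative controls, and no fold is given.

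Igfbp5, which binds extracellular matrix and is cut by the protease HTRA1, read 1.76, 2.65 and -3.20 in KO and 8.50, 8.31 and 5.04 in WT. The groups did not overlap, with KO lower. The log2 difference of -0.16 (95% interval -0.29 to -0.03) had an unadjusted p of 0.0195 and a limma adjusted p of 0.0774. It passed with median scaling (-0.23, adjusted p 0.0255) and without the offset (-1.16, adjusted p 0.0289), and was -0.089 with spot medians (adjusted p 0.590). All 6 arrays were near background.

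**Figure D2:**
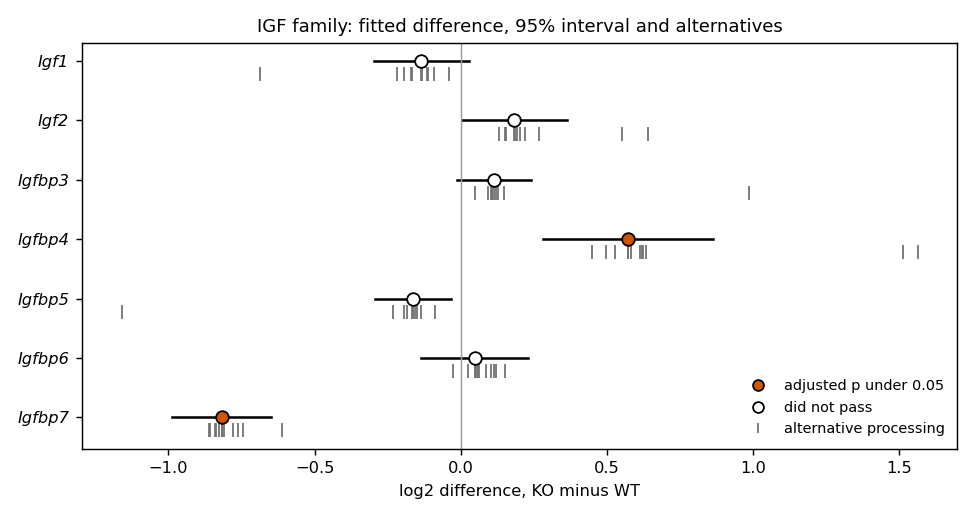
Circles give the log2 difference, KO minus WT, of each measured family gene with its 95% interval, filled where the adjusted p was under 0.05. Grey ticks give the same difference under each alternative that gave a value. Igfbp7 stayed below 0 and Igfbp4 above 0 under all of them, and Igfbp6 crossed 0 under 1.

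**Figure D3:**
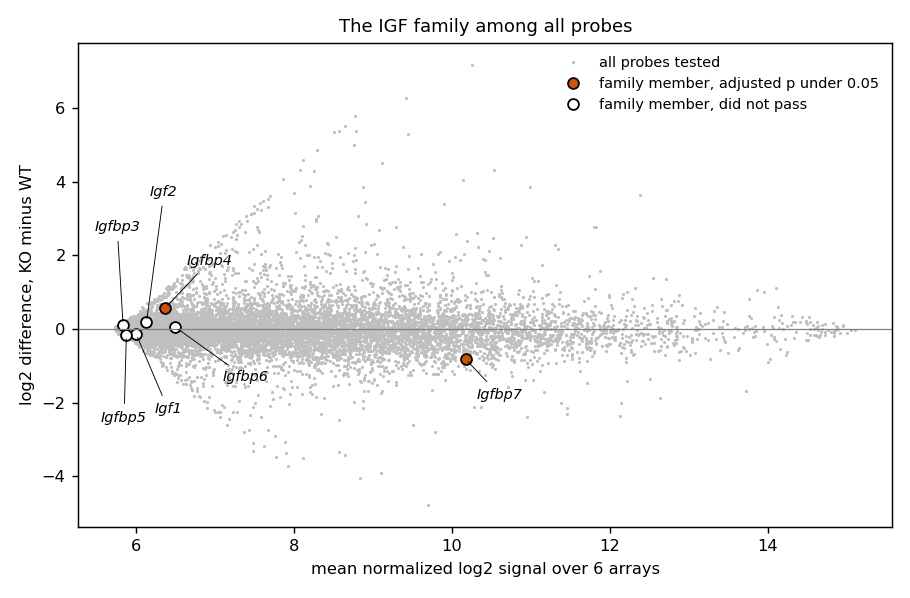
Each grey point is 1 of the 19608 probes tested, with the mean normalized log2 signal over 6 arrays on the horizontal axis and the log2 difference, KO minus WT, on the vertical axis. The measured family genes are labelled, with filled circles for Igfbp4 and Igfbp7. All but Igfbp7 lie toward the left edge, where the offset compresses differences toward 0.

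A list of 62 genes that act with the family was read from the same fit, and 51 of them had a matched probe. Of the 51, 11 rose, 7 fell and 33 did not pass, so 35.3% were called against 22.5% of all probes. The list's median log2 difference was 0.018, against -0.0079 over all probes. On the array 26 of the 51 were above background in all 6 cultures and 17 were near background in both groups. The share over all probes is not matched for signal level. It was 41.0% for probes above background on every array and 0.85% for those near background on every array. The list was chosen with results of these data known, so its count is a description. Of 12 alternatives, each array left out among them, the call was lost under 5 for Gga1, 6 for Socs2 and Igf2bp3, 7 for Ghr, and 8 for M6pr and Igf2bp1. Of the 11 that gave a value, it was lost under 6 for Ptpn11, 7 for Adam12 and 9 for Gab1.

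Proteases and partners of the binding proteins showed the largest differences of the list: of 8 measured, 3 rose (Stc1, Stc2 and Adam12) and Htra1 fell. Over all probes 22.5% were called. The list was chosen with results of these data known, so the count of 4 in 8 is a description of these genes. Htra1, a secreted serine protease that cuts IGFBP5, read 21.4, 29.2 and 15.7 in KO and 676, 664 and 574 in WT. The groups lay far apart, and 2 of 3 KO arrays were above background. The log2 difference was -3.37 (SE 0.08, limma adjusted p 1.41e-07), a 10.4-fold lower level on the offset scale. Without the offset the log2 difference was -4.93, and that of Stc1, described next, was 3.87 in place of 2.07.

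The stanniocalcins STC1 and STC2 are secreted glycoproteins that inhibit the pappalysins, the proteases that cut IGFBP4. Stc2 read 1662, 1971 and 2162 in KO and 61.9, 67.2 and 55.9 in WT, a log2 difference of 3.85 (SE 0.14, limma adjusted p 1.52e-06) or 14.4-fold on the offset scale and 4.56 on the log2 scale without the offset. Stc1 read 283, 239 and 217 in KO and 10.7, 8.81 and 10.6 in WT, where it was near background. By the means it was at least 3.73-fold higher in KO (adjusted p 6.37e-07). Both stood higher in all 3 KO cultures than in any WT culture. Adam12, a membrane-bound protease that cuts IGFBP3 and IGFBP5, passed with a log2 difference of 0.29 (adjusted p 0.0219) but was near background in both groups. Its call was lost without KO replicate 2, WT replicate 2 or WT replicate 3 (adjusted p 0.0711, 0.0524 and 0.0760). Pappa and Pappa2, which encode the pappalysins, were not analysed here.

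Among ligands and sorting partners of the IGF2 receptor, 3 of 5 listed genes were measured and all 3 passed as higher. All 3 were above background on every array, where 41.0% of all probes passed, so the count of 3 is a description of these genes. Plaur, the urokinase receptor and a ligand of IGF2R, read 717, 811 and 847 in KO and 228, 257 and 281 in WT, with no overlap. Its log2 difference was 1.17 (SE 0.13, limma adjusted p 5.20e-04), a 2.25-fold higher level. Gga1, an adaptor that sorts mannose 6-phosphate receptors, had a difference of 0.47 (adjusted p 0.0245), which lost its call without KO replicate 2, WT replicate 1 or WT replicate 3 (adjusted p 0.0601, 0.0925 and 0.0737). M6pr, the smaller mannose 6-phosphate receptor, had a difference of 0.20 (adjusted p 0.0339). Its call held only without KO replicate 3 among the arrays left out in turn; without the others the adjusted p was 0.0658 to 0.121.

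Among receptor relatives and docking proteins, 2 of 14 measured genes rose and 2 fell, a called share of 28.6%, near the 22.5% of all probes. Grb2, the adaptor that links receptors to Sos and Ras, read 544, 621 and 490 in KO and 192, 293 and 218 in WT. All KO values were above all WT values, and the log2 difference was 0.81 (SE 0.10, limma adjusted p 8.73e-04), 1.76-fold. Grb14, an adaptor that inhibits the insulin receptor, read 83.1, 74.4 and 70.1 in KO and 30.1, 36.9 and 34.4 in WT, a log2 difference of 0.42 (SE 0.06, adjusted p 0.00131), or 0.80 without the offset.

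The genes of this group that fell were dim. Ptpn11, the phosphatase SHP2, read 17.4, 14.1 and 17.3 in KO, near background, and 32.7, 21.2 and 43.3 in WT. By the means it was at least 1.26-fold lower in KO (limma adjusted p 0.0409). Its 95% interval reached 0.917 times WT on the offset scale. Gab1, a docking protein, read 12.3 to 13.1 in KO and 16.5 to 26.4 in WT, with 1 WT array above background. By the means it was at least 1.09-fold lower in KO (adjusted p 0.0475), and its 95% interval reached 0.952 times WT. Ptpn11 lost its call without KO replicate 1, KO replicate 2, WT replicate 1 or WT replicate 3 (adjusted p 0.0937, 0.115, 0.125 and 0.103). Gab1 lost its call without any array except KO replicate 3 (adjusted p 0.0525 to 0.140).

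In the PI3K and Akt branch 2 of 17 measured genes rose, 1 fell and 14 did not pass, a called share of 17.6% against 22.5% of all probes. Foxo1, a transcription factor that Akt keeps out of the nucleus, read 278, 314 and 264 in KO and 152, 178 and 124 in WT (log2 difference 0.49, SE 0.09, limma adjusted p 0.00482). Gsk3b, a kinase that Akt inhibits, had a difference of 0.30 (adjusted p 0.0106). Pik3cb, the beta catalytic subunit of PI3K, had a difference of -0.34 (adjusted p 0.0183). Foxo1 and Gsk3b kept their calls whichever array was left out, but Foxo1 lost it without the offset (adjusted p 0.0509), and Gsk3b without the offset (0.126) and on the authors' normalized values (0.0663). Pik3cb lost its call without WT replicate 2 (adjusted p 0.0720), with median scaling (0.168), without the offset (0.0778) and on the authors' normalized values (0.123).

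On the hormone side 2 of 7 measured genes passed, both lower in KO, and the other 5 were near background in both groups. The called share of 28.6% is near the 22.5% of all probes and is not a result about the group. Ghr, the growth hormone receptor, read 358, 440 and 242 in KO and 356, 455 and 375 in WT. These intensities overlapped, and the normalized values did not: the log2 difference was -0.47 (SE 0.12, limma adjusted p 0.0269). With median scaling it was -0.29 (adjusted p 0.377), and the call was also lost without KO replicate 1, WT replicate 2 or WT replicate 3 (0.0625, 0.108 and 0.0948). Socs2, a feedback inhibitor of that receptor, had a difference of -0.29 (adjusted p 0.0194), which was lost without KO replicate 1, WT replicate 1 or WT replicate 2 (0.0554, 0.0805 and 0.0593).

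Both measured Igf2 mRNA-binding proteins passed, in opposite directions. Both were above background on all 6 arrays, where 41.0% of all probes passed, so the count is a description of these genes. Igf2bp3, which binds Igf2 transcripts, read 305, 245 and 211 in KO and 175, 150 and 137 in WT, a log2 difference of 0.31 (limma adjusted p 0.0498). Igf2bp1, its relative, read 34.26 to 34.97 in KO and 36.3 to 47.4 in WT, a difference of -0.22 (adjusted p 0.0302). Igf2bp3 lost its call without KO replicate 1, KO replicate 2, WT replicate 2 or WT replicate 3 (adjusted p 0.0606 to 0.174). Igf2bp1 lost its call without KO replicate 1, KO replicate 2, WT replicate 1 or WT replicate 2 (adjusted p 0.0938 to 0.112).

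**Figure D4:**
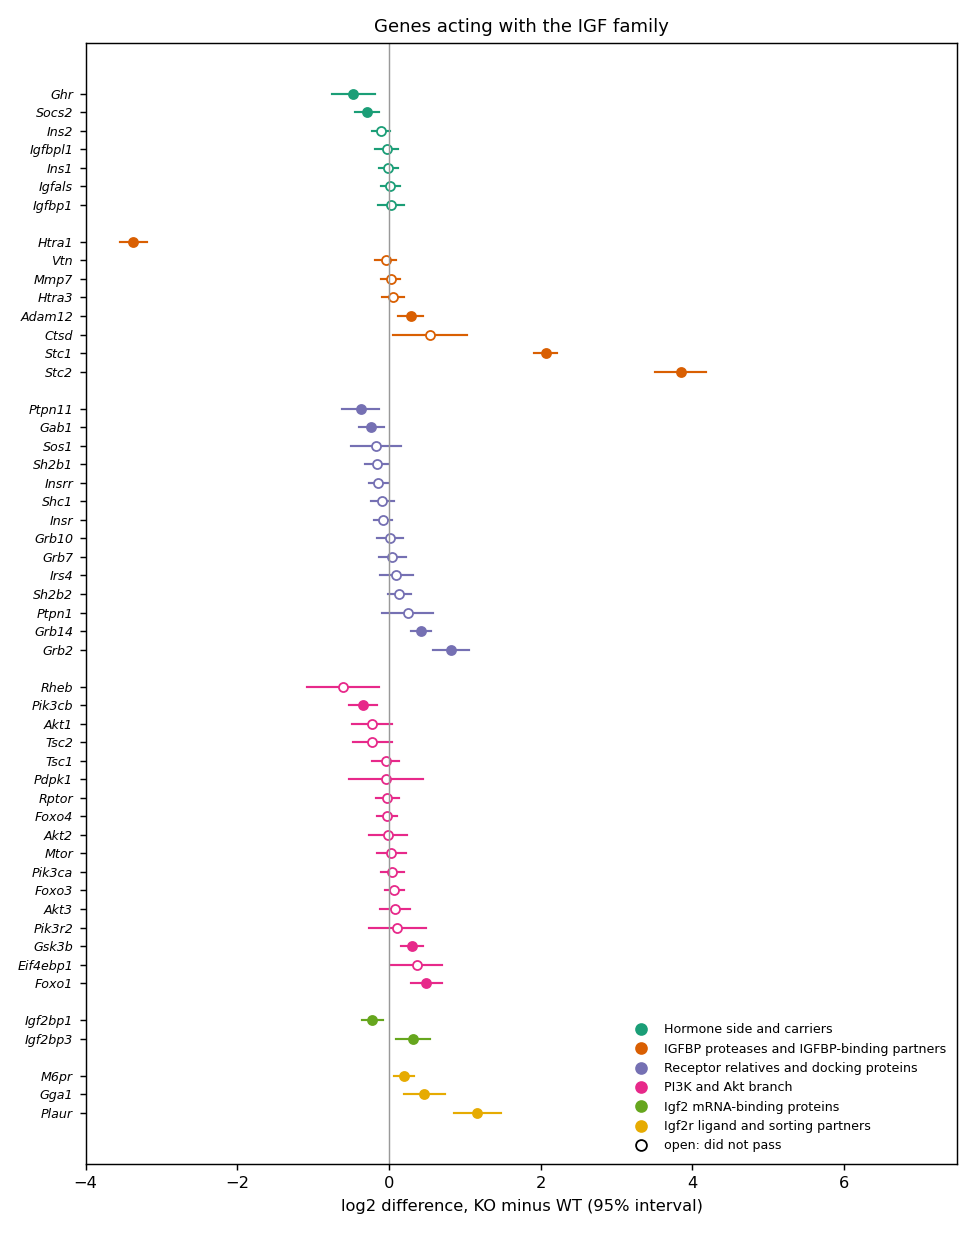
Each circle is the log2 difference, KO minus WT, of 1 of the 51 measured genes that act with the family, with its 95% interval, coloured by role and filled where the adjusted p was under 0.05. Htra1, Stc1 and Stc2 stand apart from the other genes, most of which lie within 1 log2 unit of 0.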

How the data were processed

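Total RNA of 3 KO and 3 WT cultures was hybridised to 6 arrays. Per the labels each array also received, in Cy3, a pool matched to its culture by genotype. As each file holds 1 channel, that channel was taken as the culture's RNA and treated as a 1-colour intensity. A KO pool would be low in Mapk14 too, so that gene does not check which channel was read. If it was the pool's, the 3 arrays of a genotype would not measure 3 separate cultures. Each of the deposited files gives, per the file headers, mean and median spot intensity and local background intensity for each spot. Limma was used by the authors per the submitters' processing notes, with no version stated. The names inside the files of KO replicates 2 and 3 are exchanged against the sample titles, and so are the matching columns of the authors' value table. Replicate names follow the titles, and the groups are unaffected.

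Background was corrected with normexp (offset 50) on mean spot and median background intensity with limma 3.58.1 (R 4.3.3). Spots marked bad were left out and the log2 values of the gene probes were quantile normalized. KO and WT were compared with lmFit and eBayes, two-sided, with Benjamini-Hochberg adjustment over 19608 probes. The code of the fit was also run on simulated data with the same noise level for every probe. That run checks the code and not how the fit handles the noise of these arrays. "Above background" is the scanner software's mark. The offset makes the log2 differences of dim probes smaller, and with 3 arrays a group the precision is limited by their number.

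Of the gene probes 10813 were named through a RefSeq table of GRCm38.p6, 10712 by accession and 101 by a unique synonym. The other 8988 stayed unnamed, so a gene without a named probe was not analysed here. The members and lists were chosen with earlier results of these data known. All measured members are described, and from the pathway list up to 4 called genes with the smallest adjusted p per role. A gene of the pathway list is not reported here and stays out of its counts. Protein sequences were not used here. Alternatives were an offset of 0, median scaling, spot medians, a filter on dim probes, the authors' normalized values, the replicate number as a block, and each array left out. Slide or scan was not used as a block, because no slide or scan mark in the files is shared by more than 1 array.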

Additional observations from a re-analysis of the deposited data

How the results depend on the processing

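Igfbp7 kept its direction and its call under all 12 alternatives (-0.86 to -0.61), as did Htra1, Stc1, Stc2, Plaur, Grb2, Grb14 and Mapk14. Of the 18 genes named from the pathway list, the other 12 lost their call under at least 1 alternative, and none changed direction. The cause of each shift below was not tested.

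With each array left out in turn, Igfbp4 ranged from 0.45 to 0.63, Igf1 from -0.19 to -0.092, Igf2 from 0.13 to 0.27 and Igfbp6 from -0.027 to 0.11. Igfbp6 was on the other side of 0 without WT replicate 3 (-0.027). Igf1 passed with spot medians (-0.22) and was -0.039 on the authors' values (adjusted p 0.732). Igfbp5 passed with offset 0 (-1.16) and with median scaling (-0.23) and was -0.089 with spot medians (adjusted p 0.590). The count of members called lower was 2 with offset 0, with median scaling and with spot medians. With an array left out, 0 to 2 members were called higher and 1 to 2 lower; none was called higher without WT replicate 1, and 2 were called each way without KO replicate 3.

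Over all probes, calls lower in KO were 1331 with offset 0, 1345 with median scaling and 1411 on the authors' values. The share of calls that were higher was 46.3%, and 64.1% with median scaling. Over the pathway list, calls higher and lower were 5 and 3 with offset 0, 7 and 3 on the authors' values, 13 and 3 with median scaling, and 10 and 4 with spot medians. With an array left out they ranged from 7 to 12 and from 2 to 8. The median of all probes stayed within 0.05 of 0 under every setting.

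Deviations of same-numbered KO and WT cultures had correlations of 0.34, -0.18 and 0.16 over 8018 probes across genes, by the numbers in the titles. By the numbers inside the files, which exchange KO replicates 2 and 3, they were 0.34, 0.28 and -0.15. The signs were mixed under both numberings, so the numbers were not taken as pairs. With the replicate number of the titles as a block, 2029 probes were called higher and 2312 lower. The same 2 family members passed, and 9 pathway genes rose and 5 fell. A block by the numbers inside the files was not fitted.

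The filter on dim probes gave no value for Igf1, Igf2, Igfbp3 and Igfbp5, and the authors' values gave none for Igfbp3 and Igfbp5. Dim signal limits every member but Igfbp7.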

Other observations

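The nearest measured neighbours of the family members that passed were read for their position, a choice made after the values were seen. Igfbp4, on chromosome 11, lies between Top2a (log2 difference -0.20, SE 0.16) and Tns4 (0.12, SE 0.07), and neither passed (limma adjusted p 0.491 and 0.265). Igfbp7, on chromosome 5, lies next to Polr2b, a subunit of RNA polymerase II, which had a log2 difference of -0.66 (SE 0.20, limma adjusted p 0.0485), lower in KO, and was above background on all arrays. On the other side of Igfbp7 the nearest measured gene, Tecrl, was near background on every array. Of probes above background on all arrays 41.0% passed, so the call of Polr2b is not a result about the region. Neighbours of members that did not pass were called too: Nup37 by Igf1 (-0.57), Mrpl23 by Igf2 (-0.42) and Csad by Igfbp6 (0.36), with limma adjusted p of 0.00721, 0.00514 and 0.00714. Those of Igfbp3 and Igfbp5 did not pass.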
